A study of Mus musculus with 9 samples.

Results

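A run of closely spaced Dppa4 peaks on mouse chromosome 6, from 114340000 to 114720000 in the mm9 assembly, was described in 3 cell lines. Its members were all deposited peaks that overlap this stretch of 380 kb. There were 512 of them among the 229345 peaks of 6 lists, and a further 11287 peaks lay elsewhere on chromosome 6. The members were chosen by the number of peaks per length in these same lists, so the density and spacing of the run are given as a description with no test.

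DPPA4 is a nuclear protein with a SAP domain, a fold that binds DNA, and it acts together with its partner DPPA2. It is known as a chromatin factor of pluripotent cells and the early embryo, and most differentiated cells lack it. A peak caller reports each place where fragments pulled down with an antibody pile up, so a peak has a position, a width and a score but no direction.

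The 3T3 group consisted of fibroblasts that carried Dppa4 ectopically. The P19 group was an embryonal carcinoma line, and the E14 group an embryonic stem cell line kept without feeder cells in 2i medium. Each line gave 2 immunoprecipitated libraries with a peak list each, and its 1 input library was not analysed here. Replicates may be technical, because separate cultures are not mentioned in the labels. Comparisons of lines then rest on technical spread alone. Tests over all libraries mix that spread with the spread between lines. No mm9 genome or gene annotation was at hand, and no peak was assigned to a gene, exon or intron.

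The run held 81 and 61 peaks in 3T3 (replicates 1 and 2), 105 and 88 in P19, and 112 and 65 in E14. The counts of the lines overlapped, although the full 3T3 lists, with 15462 and 17540 peaks, were much shorter than the P19 lists with 40011 and 51196 and the E14 lists with 61693 and 43443. The lists carry no read counts, so depth is unknown.

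As a share of the full list, the run took most in 3T3. It held 0.524% (Wilson 95% interval 0.422 to 0.651) and 0.348% (0.271 to 0.446) of the 3T3 peaks. It held 0.262% (0.217 to 0.318) and 0.172% (0.140 to 0.212) of the P19 peaks, and 0.182% (0.151 to 0.218) and 0.150% (0.117 to 0.191) of the E14 peaks. These intervals cover counting error only. The mean share was 0.436 ± 0.125% in 3T3, 0.217 ± 0.064% in P19 and 0.166 ± 0.023% in E14 (SD, n = 2 each). In the full lists the lowest 3T3 share lay above every P19 and E14 share, and the P19 and E14 shares overlapped. The difference was 0.270 percentage points for 3T3 minus E14, 0.219 for 3T3 minus P19 and 0.052 for P19 minus E14. With lists cut to the length of the shortest, 3T3 minus P19 fell to 0.094 percentage points and the shares of these lines overlapped, and with the best-scoring 50% of each list to 0.109, again with overlap. The other differences under these settings were 0.207 and 0.193 for 3T3 minus E14, and 0.113 and 0.084 for P19 minus E14. The shares rest on the peak counts by which the run was chosen, so they carry no test.

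Peaks per 100 kb numbered 21.3 and 16.1 in the run, against 0.561 and 0.602 on the rest of chromosome 6, in the 3T3 libraries. They numbered 27.6 and 23.2 against 1.41 and 1.83 in P19, and 29.5 and 17.1 against 1.91 and 1.42 in E14. The run thus had 12.1 to 38.0 times the density of the rest of the chromosome, with both 3T3 libraries above the other lists. The rise was abrupt. The 380 kb before the run held 3 to 17 peaks and the 380 kb after it 6 to 20, over the 6 lists.

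Nearly all members sat in a core much shorter than the run. The core was taken as the longest chain of peaks from any list with gaps of at most 5 kb. It reached from 114440247 to 114587778 on chromosome 6, a length of 147.5 kb. It held 80 and 61 peaks in 3T3, 98 and 83 in P19, and 105 and 60 in E14. Peaks covered 24.2% and 44.4% of its bases in 3T3, 40.6% and 45.9% in P19, and 44.6% and 46.8% in E14. On the rest of chromosome 6 the covered share ranged from 0.302% to 1.23% over the 6 lists.

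**Figure D1:**
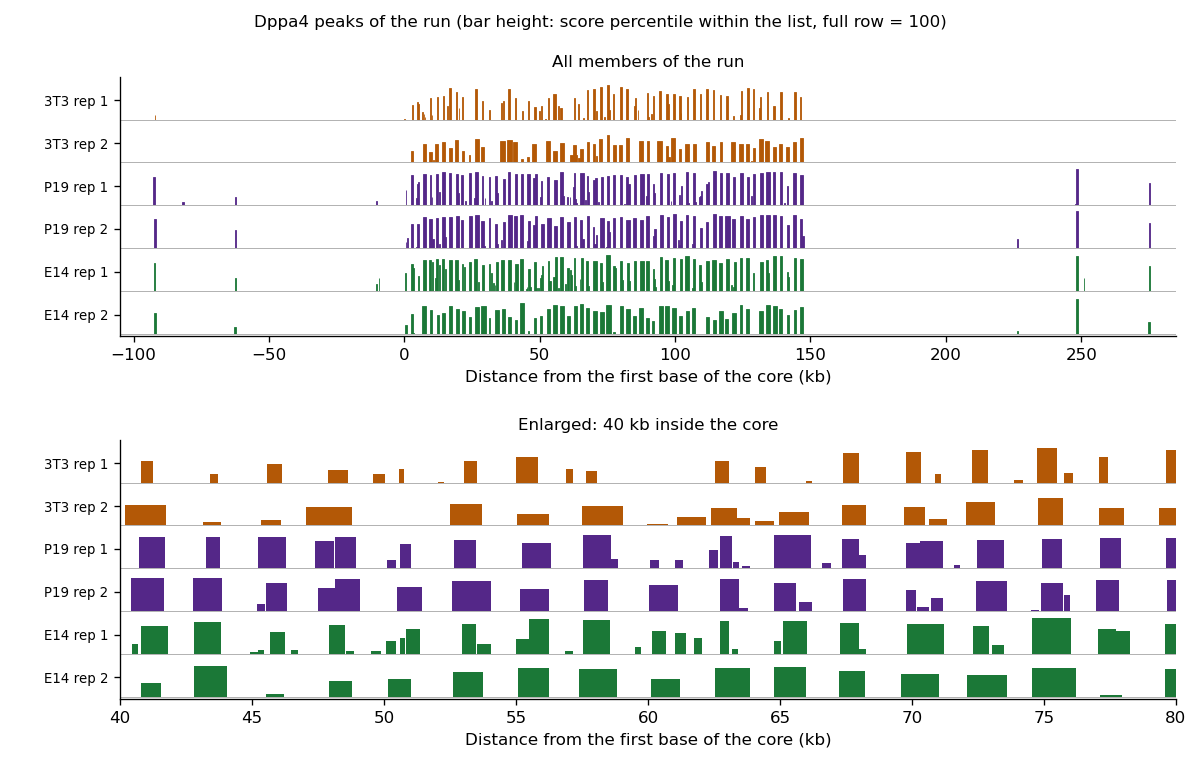
Peaks of the run in the 6 lists by distance from the first base of the core in kb, with the height of each bar giving the score percentile of the peak in its own list (a full row is 100). The upper panel shows all members, with the core of 147.5 kb and the few peaks beside it, and the lower panel shows 40 kb of the core, where peaks of all lists recur at like positions.

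Within the core, peaks recurred at a nearly fixed distance of about 2.4 kb. The spacing at which midpoints fell most closely into step was sought from 500 to 5000 bp in each list by itself. It was 2437 and 2441 bp for the 3T3 libraries, 2439 and 2440 bp for P19, and 2440 and 2438 bp for E14. The means were 2439 ± 2.83 bp in 3T3, 2439.5 ± 0.707 bp in P19 and 2439 ± 1.41 bp in E14 (SD, n = 2 each). The 6 lists were searched separately and differed by 4 bp at most. Over all lists together the best spacing was 2439 bp. The pattern was noticed in these lists and then measured in them, so it carries no test.

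How closely the peaks kept step was measured by a concentration index, which is 0 for midpoints spread evenly over the interval and 1 for midpoints all at the same place in it. At 2439 bp the index was 0.498 and 0.639 in 3T3, 0.507 and 0.548 in P19, and 0.439 and 0.720 in E14. Replicate 2, with fewer core peaks, had the higher value in every line. The share of core peaks with a midpoint no more than 609 bp from the common position, which an even spread would put at 50%, was 81.2% and 90.2% in 3T3, 81.6% and 84.3% in P19, and 76.2% and 93.3% in E14. Both the spacing and the common position were fitted to these midpoints. Scattered peaks fitted in this way would also tend to exceed 50%, and an index of 0.

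The common position was nearly the same in the 3 lines. Relative to the mean of all lists, the average midpoint lay at -43.5 and -69.6 bp in the 3T3 libraries, at 36.8 and 30.1 bp in those of P19, and at 52.7 and 10.7 bp in the E14 libraries. Both 3T3 libraries thus lay slightly to the left of the P19 and E14 libraries, by a distance far smaller than the width of a peak.

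**Figure D2:**
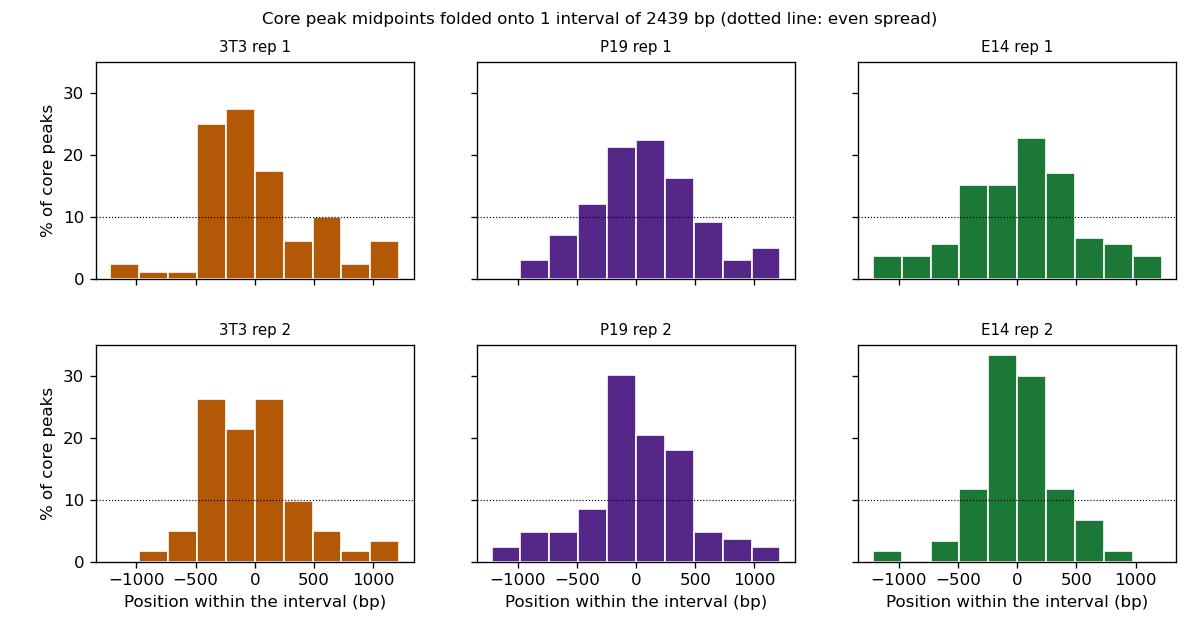
Midpoints of core peaks folded onto 1 interval of 2439 bp, in bp from the common position of all lists, as a percentage of the core peaks of each list in 10 bins. The dotted line marks 10%, the level of an even spread, and in all 6 lists the bins beside 0 stand above it. Both the spacing and the common position were fitted to these midpoints.

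The best-scoring peaks kept the step most closely. Core peaks at or above the median score of the core had an index of 0.798 and 0.760 in 3T3, 0.808 and 0.839 in P19, and 0.736 and 0.780 in E14. The peaks below it had 0.268 and 0.516 in 3T3, 0.212 and 0.256 in P19, and 0.151 and 0.670 in E14. Peaks farther from the common position were narrower and ranked lower in all lists. They were few, numbering 15 and 6 in 3T3, 18 and 13 in P19, and 25 and 4 in E14. Their median width was 257 and 905.5 bp, against 490 and 1056 bp for the peaks near it, in 3T3. In P19 it was 326 bp in both libraries, against 677.5 and 921.5 bp near the common position. In E14 it measured 306 and 597.5 bp, against 705 and 1206.5 bp near it. Their median score percentile ranged from 15.4 to 37.2, against 47.6 to 77.6 near the common position, over the 6 lists. Where an interval held several peaks, not all of them could lie at the common position. In E14 replicate 2, with 1 peak in each filled interval, the indices of the upper and lower peaks were 0.780 and 0.670. A part played by split intervals was not tested.

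The spacing was not quite uniform along the core. To the right of its middle the best spacing was 2465 and 2463 bp in 3T3, 2462 and 2465 bp in P19, then 2460 and 2465 bp in E14. To the left of it the values were lower, with 2422 bp in 3T3 replicate 2, 2414 and 2416 bp in P19, then 2409 and 2411 bp in E14. In 3T3 replicate 1 the search to the left of the middle settled on 805 bp. The values of the other lists lie close to a multiple of it, so the spacing is not shown to be absent there.

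Cut into intervals of 2439 bp, the core spanned 61 intervals with a peak midpoint, and 51 of them had one in all 6 lists. Another 9 had a midpoint in 5 lists and 1 in 4 lists. The 3T3 libraries filled 58 and 54 intervals, the P19 libraries 61 and 61, and the E14 libraries 61 and 60. E14 replicate 2 had exactly 1 peak in each interval it filled. The other lists had on average 1.38 and 1.13 peaks per filled interval in 3T3, 1.61 and 1.36 in P19, and 1.72 in E14 replicate 1. The libraries of a line thus differed more in how many peaks an interval was split into than in the number of intervals filled.

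The distance from a midpoint to the next was shorter where intervals held several peaks. In bins of 200 bp, the commonest distances of P19 replicate 1 began at 400 bp with 13, against 12 in each of the bins that begin at 2200 and 2400 bp. Those of E14 replicate 1 began at 600 bp with 23, against 17 in the bin that begins at 2000 bp. Core medians were 2120 and 2371 bp for the 3T3 libraries, 1536 and 2107 bp for P19, then 1413 and 2444 bp for E14. On the rest of chromosome 6 the median ranged from 24589 to 67324 bp. Distances within 10% of 2439 bp (2196 to 2682 bp) numbered 28 of 80 and 31 of 60 in the run in the 3T3 libraries, against a background of 0.611% and 1.14% on the rest of chromosome 6. They numbered 26 of 104 and 34 of 87 in P19, against 1.60% and 2.10%, and 19 of 111 and 44 of 64 in E14, against 1.51% and 1.40%. The distance of 2439 bp was itself read from the run, and the dense run holds more short distances of any size, so these counts describe the pattern only. Among distances under 5 kb the share near 2439 bp was 35.4% and 53.4% in the run against 2.92% and 11.1% elsewhere on chromosome 6 in 3T3. The shares were 26.5% and 41.5% against 8.46% and 10.3% in P19, and 17.9% and 74.6% against 6.79% and 10.4% in E14.

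**Figure D3:**
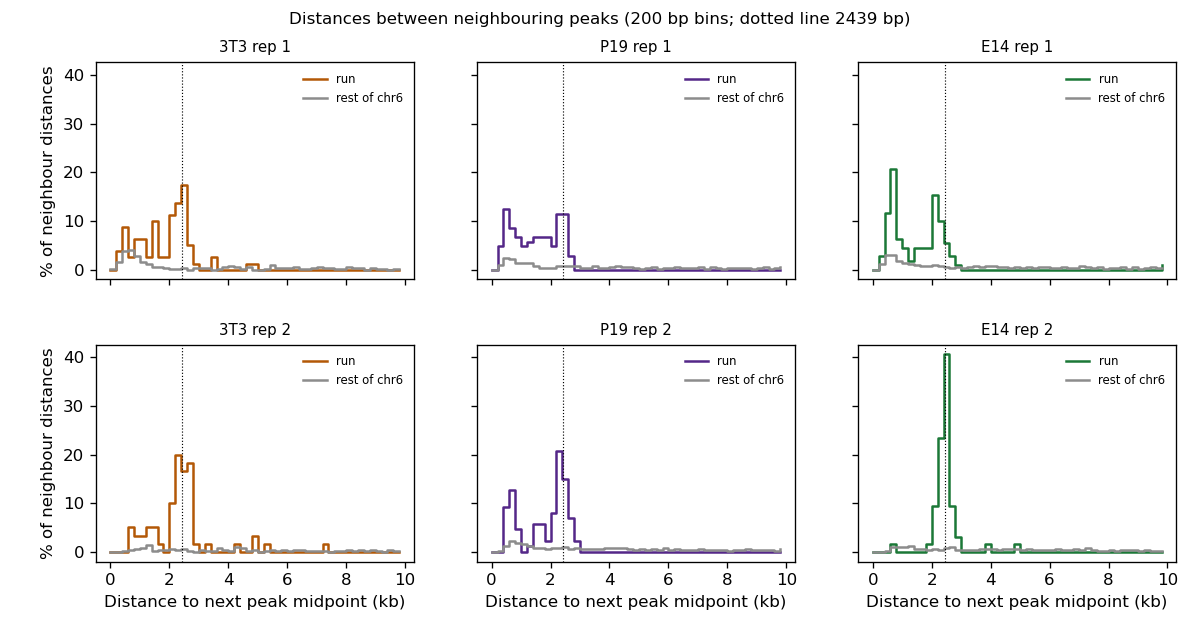
Distances between neighbouring peak midpoints in kb, as a percentage of all distances of a set in bins of 200 bp, for the run (coloured) and the rest of chromosome 6 (grey) in each list. Both 3T3 lists, P19 replicate 2 and E14 replicate 2 have their tallest bin for the run between 2200 and 2600 bp, beside the dotted line at 2439 bp, while in P19 replicate 1 and E14 replicate 1 it begins at 400 and 600 bp.

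Merging all overlapping peaks of the 6 lists gave 93 regions in the run, 84 of them in the core. Of the core regions, 49 had a peak in all 6 lists, 10 in 5 lists and 16 in a single list. Their median width was 1338 bp, with a range from 155 to 2246 bp. Regions found in both libraries of a line numbered 53 in 3T3, 72 in P19 and 64 in E14. Joined over the lines they made 68 regions. Of these, 49 were held by all 3 lines and 14 by P19 and E14 without 3T3. P19 alone held 3, E14 alone held 1, and 3T3 with P19 held 1. No region of the run was held by 3T3 alone or by 3T3 and E14 without P19. The 3T3 lists were also the shortest. The number held by all 3 lines fell to 21 with lists cut to the length of the shortest, and to 15 with the best-scoring 50% of each list. The same counts were not made for the rest of chromosome 6, so sharing between lines is not shown to be particular to the run.

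The core regions with a peak in all lists and the highest mean score percentile were spread along the core. The first reached from 114514738 to 114516459, scoring 352.65 and 308.73 in 3T3, 331.29 and 295.8 in P19, and 824.83 and 288.06 in E14. It held the best score of the core in both 3T3 libraries and in E14 replicate 1. The second reached from 114466037 to 114467809, scoring 227.85 and 209.61 in 3T3, 705.83 and 698.75 in P19, and 477.87 and 227.77 in E14. The third, from 114573509 to 114575390, scored 178.98 and 183.04 in 3T3, 772.73 and 799.47 in P19, and 415.27 and 282.89 in E14. In these regions P19 scores of the 2 libraries lay close together, while E14 replicate 1 scored above E14 replicate 2. Scores of different lists are not on a scale known to be shared. The next ones reached from 114533559 to 114535697, from 114538644 to 114540618 and from 114563904 to 114565267, with mean percentiles of 76.1, 75.7 and 75.6 over the 6 lists, against 79.3 for the first. The widest regions were those from 114500214 to 114502459, with 2246 bp, and from 114504292 to 114506476, with 2185 bp, followed by the fourth of those just named, with 2139 bp.

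Of the 64 core regions found in both libraries of a line, 49 were held by all lines and 15 were not. Among the 15, P19 and E14 without 3T3 held 10. One of these, from 114473583 to 114475301, scored 344.59 and 213.75 in P19 and 321.09 and 185.19 in E14, and had no peak in either 3T3 list. The region from 114568845 to 114569832 was held by 3T3 and P19, scoring 233.94 and 108.46 in 3T3 and 439.43 and 467.88 in P19. It had a peak scoring 113.2 in E14 replicate 1 and none in E14 replicate 2. The region from 114443541 to 114443945 was held by E14 alone, with scores of 168.3 and 50.84, at percentiles of 60.1 and 1.34. The score of 50.84, in E14 replicate 2, lay close to 50.25, the lowest of the run in that list. The best-ranked region held by P19 alone, from 114444141 to 114445741, scored 177.51 and 207.49 in P19. It also had peaks in both 3T3 libraries that did not overlap each other and 1 in E14 replicate 1.

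Beside the core the run had 9 merged regions. The 3T3 libraries had 1 and 0 peaks there, the P19 libraries 7 and 5, and the E14 libraries 7 and 5. Per 100 kb these were 0.430 and 0 in 3T3, against 0.561 and 0.602 on the rest of chromosome 6. They were 3.01 and 2.15 against 1.41 and 1.83 in P19, and 3.01 and 2.15 against 1.91 and 1.42 in E14. The 3T3 density beside the core was thus no higher than that of the chromosome at large, where the 3T3 lists also had fewer peaks than the others. The strongest member of the run outside the core reached from 114688073 to 114689045. It had no peak in either 3T3 library, and scored 2099.93 and 2781.03 in P19 and 670.07 and 651.89 in E14. Its percentiles of 94.2 and 95.3 in P19 and 89.6 and 91.4 in E14 lay above all core peaks of the same list, except in E14 replicate 1, where the best core peak stood at 92.5. The region from 114347616 to 114348474 scored 298.44 and 362.56 in P19 and 259.27 and 142.13 in E14, with a peak scoring 56.02 in 3T3 replicate 1 and none in 3T3 replicate 2. The regions from 114377375 to 114378052 and from 114715003 to 114715705 likewise had a peak in all P19 and E14 libraries and in no 3T3 library.

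The longest stretch of the run without a peak in any list measured 78.6 kb, from 114587779 to 114666420, directly after the core. The second, of 51.7 kb from 114378053 to 114429767, lay before it. Inside the core no stretch without a peak exceeded 1.41 kb. At the left limit of the run, the first members began at 114347616 to 114347716 in the P19 and E14 lists, at 114348014 in 3T3 replicate 1 and at 114442665 in 3T3 replicate 2. The nearest peaks outside ended between 114233187 and 114291768. At the right limit, the last members ended at 114586924 and 114587622 in 3T3, at 114715639 and 114715705 in P19, and at 114715639 and 114715670 in E14. The nearest peaks beyond began between 114799382 and 114803123.

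Members of the run tended to be wider than other peaks of chromosome 6, without passing the test. In 3T3 their median width was 437 and 1056 bp, against 440 and 927 bp for the rest of chromosome 6. In P19 it was 532 and 814 bp, against 471 and 547 bp. In E14 it was 519 and 1125 bp, against 415 and 759 bp. The run was wider in 5 of 6 libraries, by 154 ± 137 bp on average (SD, n = 6 libraries, exact two-sided sign-flip permutation p = 0.0625). With means in place of medians the difference was 73.9 bp (exact sign-flip permutation p = 0.156). The smallest p that 6 libraries allow is 0.031, and the libraries of a line are not independent. The widest member measured between 862 and 1811 bp over the 6 lists. The widest peak elsewhere on chromosome 6 exceeded it in each list, at 2421 to 8844 bp.

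By score rank, members stood in the middle of the 3T3 lists and above the middle of the P19 and E14 lists, but seldom near the top of any. Scores were turned into percentile ranks in their list, with 100 for the strongest peak. The median percentile was 55.2 and 47.2 in the run, against 54.2 and 53.4 on the rest of chromosome 6, in 3T3. It was 70.0 and 72.5 against 50.5 and 48.9 in P19, and 66.1 and 59.2 against 51.5 and 51.8 in E14. The difference was positive in 5 of 6 libraries and averaged 10.0 ± 11.4 percentiles (SD, n = 6 libraries, exact two-sided sign-flip permutation p = 0.0938). With means in place of medians it was 0.585 percentiles (exact sign-flip permutation p = 0.875). With only the best-scoring 50% of each list it turned to -11.3, and with lists cut to the length of the shortest to -15.9.

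The difference from the rest of the chromosome was not alike in the lines. It averaged -2.58 ± 5.09 percentiles in 3T3, 21.6 ± 2.94 in P19 and 11.0 ± 5.10 in E14 (SD, n = 2 each), and the values of the lines did not overlap. Each pair of lines gave an exact two-sided permutation p of 0.333, the smallest possible with 2 libraries against 2. The percentiles were taken in lists of unequal length, with the shortest in 3T3. With lists cut to the length of the shortest, the mean over all libraries moved from 10.0 to -15.9 percentiles. The lines were not compared at equal length, so a part played by list length was not tested.

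Members above the 90th percentile of their list numbered 0 of 81 and 0 of 61 in 3T3, against 12.8% and 11.9% of the peaks on the rest of chromosome 6. A count of 0 allows shares of up to 3.70% and 4.92%, taken as 3 divided by the number of members, an approximate 95% limit. These limits cover counting error only and treat neighbouring peaks as independent. They numbered 1 of 105 and 1 of 88 in P19, against 13.0% and 12.5%, and 4 of 112 and 1 of 65 in E14, against 13.0% and 12.8%. In P19 and in E14 replicate 2 the single such member was the peak beside the core between 114688073 and 114689045. The 4 in E14 replicate 1 lay in the core. The highest percentile in the core was 88.6 and 71.3 in 3T3, 89.3 and 88.0 in P19, and 92.5 and 79.8 in E14. All 6 lists thus had a smaller share of strong peaks in the run than elsewhere on the chromosome.

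**Figure D4:**
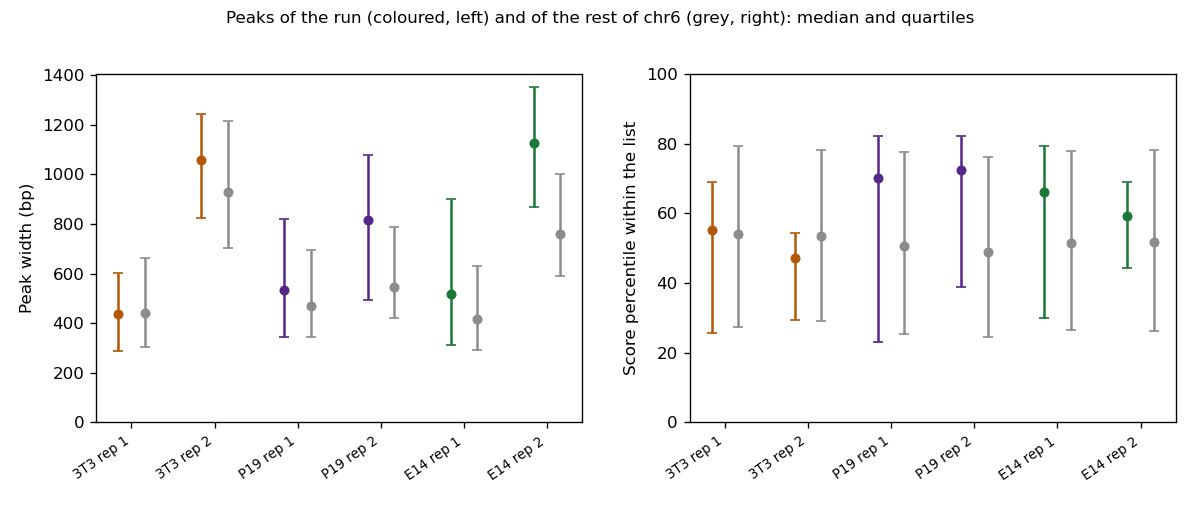
Median peak width in bp (left) and median score percentile within the list (right) for the run (coloured) and the rest of chromosome 6 (grey) in each list, with bars from the lower to the upper quartile. Percentile medians of the run stand above those of the rest by 19.5 and 23.6 in P19 and by 14.6 and 7.43 in E14, and by 1.02 and -6.18 in 3T3.

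The share of members that overlapped a peak of the other library of their line was set against that of other peaks, and the difference did not pass the test. Wilson 95% intervals are given in brackets and cover counting error only. The share was 74.1% (63.6 to 82.4) and 86.9% (76.2 to 93.2) in 3T3, against 86.9% and 69.4% on the rest of chromosome 6. It was 83.8% (75.6 to 89.6) and 92.0% (84.5 to 96.1) in P19, against 88.1% and 64.9%, and 81.2% (73.0 to 87.4) and 98.5% (91.8 to 99.7) in E14, against 68.9% and 86.1%. The difference was positive in 4 of 6 libraries and averaged 8.71 ± 14.7 percentage points (SD, n = 6 libraries, exact two-sided sign-flip permutation p = 0.250). The 2 values of a line compare the same 2 lists in opposite directions, so they are not independent. They were -12.9 and 17.5 in 3T3, -4.27 and 27.2 in P19, and 12.3 and 12.4 in E14. The p-value thus rests on fewer independent comparisons than 6. Overlap is easier where peaks are dense, as the run was chosen to be. With the best-scoring 50% of each list the difference turned to -3.22 percentage points, and with lists cut to the length of the shortest to -1.19.

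The rank order of the intervals by score was shared to different degrees between libraries. Over the 51 intervals filled in all lists, the Spearman correlation of the best percentile per interval was 0.41 for the 3T3 pair of libraries, 0.81 for the P19 pair and 0.58 for the E14 pair. It ranged from 0.10 to 0.48 between P19 and E14 libraries, from 0.11 to 0.22 between 3T3 and E14 libraries and from 0.04 to 0.27 between 3T3 and P19 libraries. The P19 and E14 pairs of libraries were each above all values between lines, while the 3T3 pair was below 0.48 and 0.42, the values of E14 replicate 1 with the P19 libraries. Intervals of a list share its depth and lie side by side, so these values are descriptions. The median over the filled intervals was 60.6 and 48.3 in 3T3, 80.9 and 79.4 in P19, and 79.0 and 60.7 in E14.

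**Figure D5:**
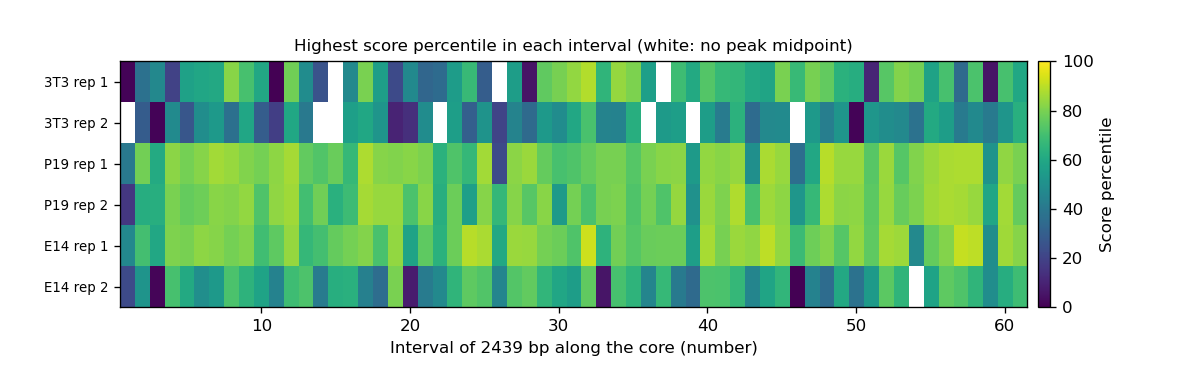
Highest score percentile in each of the 61 successive intervals of 2439 bp along the core, by list, with white where no peak midpoint fell. The 3T3 lists leave 3 and 7 intervals empty, the P19 lists 0 and 0, and the E14 lists 0 and 1.

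The run had been picked as the densest in every line, which held in part. Among windows of 147.5 kb over all chromosomes, the core was the densest in P19 replicate 2 and E14 replicate 2, and the second densest in the other 4 lists. Among windows of 380 kb the densest window touching the run stood between the second and the fifth place. On chromosome 6 itself the densest window of 380 kb elsewhere held 27 to 54 peaks.

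The stretch that rivalled the core lay on unplaced sequence of mm9, named chrUn_random in the lists, from 2365966 to 2513197. Found by the same rule on gaps, it measured 147.2 kb, against 147.5 kb for the core. The core held 80 and 61 peaks against 82 and 64 in the unplaced stretch in 3T3, 98 and 83 against 102 and 76 in P19, and 105 and 60 against 107 and 58 in E14. The best spacing there was 2445 and 2442 bp in 3T3, 2440 and 2438 bp in P19, then 2439 and 2442 bp in E14, close to that of the core in every list.

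The peak patterns of the core and the unplaced stretch were also compared in position. When both were laid side by side from their first base, the greatest shared length was found at an offset of 31 bp, where 76.1% of the bases covered in the core, summed over the lists, were also covered in the unplaced stretch. At offsets of -2417 and 2471 bp, about 1 interval away, the shares were 71.2% and 70.3%, and with the unplaced stretch reversed the best share was 56.5%. The offset was fitted to these peaks. Stretches of like spacing would share much at some offset, so the shares carry no test. At the best offset, 71.2% and 88.5% of the core peaks in 3T3, 89.8% and 91.6% in P19, and 90.5% and 91.7% in E14 overlapped a peak of the unplaced stretch. An overlap of 1 bp was enough, and no share expected from the like spacing alone was worked out. These shares thus do not show that single peaks match. No peak had identical limits in both. Median score percentiles were 55.4 and 47.2 in the core against 49.0 and 42.4 in the unplaced stretch in 3T3, 71.6 and 72.6 against 62.9 and 77.3 in P19, and 68.1 and 60.7 against 65.0 and 59.0 in E14. The Spearman correlation of the best percentile per interval ranged from 0.00 to 0.40 over the 6 lists.

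Few other dense windows had a like spacing. Besides the core, windows of 147.5 kb with at least 30 peaks numbered 4 and 1 in 3T3, 17 and 29 in P19, and 92 and 7 in E14. Those with a best spacing within 10% of 2439 bp were 2 and 1 in 3T3, 1 and 1 in P19, and 4 and 1 in E14. All were on the unplaced sequence except 2 of those in E14 replicate 1. Windows were laid end to end on a grid set by the first base of the core. The core thus filled 1 window, while a border cut the unplaced stretch. The 2 windows on the unplaced sequence in 3T3 replicate 1, and the 2 there in E14 replicate 1, held parts of this same stretch. The windows were fitted each at its own best spacing and mostly held fewer peaks than the core. Their concentration indices are therefore not compared as a set with that of the core. Windows placed freely, as in the ranking by density above, were also looked at. The third densest window of 3T3 replicate 1, on chromosome 8 from 126001863 to 126149394, held 76 peaks, against 80 in the core. Its best spacing was 847 bp, with an index of 0.605, above that of the core. The third densest of E14 replicate 1, from 126039033 on chromosome 8, had 68 peaks and an index of 0.363, below that of the core. A regular spacing of any size is thus not shown to be particular to the core and the unplaced stretch.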

How the data were processed

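Nuclei were sonicated, DPPA4 was precipitated with an antibody and Nextera libraries were sequenced, per the labels' protocols. SAMtools 1.3, BWA 0.7.13-r1126 and CASAVA 1.8 with bcl2fastq 1.8 appear in the submitters' processing notes, beside mm9 as the build. Each of the 6 deposited lists gives chromosome, start, end, name and a score from the authors' peak caller, whose scale is not named. Peak names begin with MACS. The sources used here do not give the caller's version, threshold or control, or how reads with several matches were placed. Peaks were called per library. Read depth is unknown.

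Coordinates are printed 1-based. Peaks overlapped when sharing at least 1 bp. Scores were ranked within a list. Libraries were grouped by the line and number in their titles. Run and rest of chromosome 6 were compared by exact sign-flip tests over 6 libraries, and lines by exact permutation. The members, lists and tests were chosen with earlier results of these data known. The core, the spacing search, the intervals and the comparison with the unplaced stretch were added after the peaks were seen. Regions were named by rule, namely the 6 best with a peak in all lists, the best of each other combination of lines, the 3 widest, the edges of the run and the longest empty stretch. Other regions beside the core, and 1 core region without a 3T3 peak, were chosen after their values were seen. The code was tested on simulated peaks. Software was SciPy 1.17.1, Matplotlib 3.10.9, NumPy 2.4.6 and pandas 2.3.3 under Python 3.11.15.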

Additional observations from a re-analysis of the deposited data

How the results depend on the processing

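The width difference between the run and the rest of chromosome 6 was 159 bp with limits moved inwards by 20 kb and 173 bp against the other autosomes, each with an exact sign-flip permutation p of 0.031 over 6 libraries. Over all alternatives for width, p ranged from 0.031 to 0.5. With means in place of medians the width difference was 73.9 bp (exact p = 0.156), and the percentile difference 0.585 (exact p = 0.875). The percentile difference turned to -11.3 with the best-scoring 50% of each list and to -15.9 with lists of the length of the shortest. The difference in shares found in the other library turned to -3.22 and -1.19 percentage points. Regions held by all 3 lines then numbered 15 and 21, against 49, since fewer peaks entered. The best spacing was 2441 and 2442 bp in these lists. With a replicate block the differences were 154 bp, 10.0 percentiles and 8.71 percentage points. For the share of the list they were 0.270, 0.219 and 0.052 percentage points. These means equal those without the block by construction, since every line has both numbers, so they are no check. The smallest exact sign-flip p that 2 blocks allow is 0.5. No label ties the numbers to a common origin, and 2 numbers are too few to check the pairing from the data. Leaving out each library gave 49 to 55 regions held by all 3 lines and a spacing of 2439 to 2440 bp. Lists of the length of the shortest and the best-scoring 50% gave 0.094 and 0.109 percentage points for the share in 3T3 minus P19, against 0.219, with overlapping shares. Leaving out each library gave 0.182 to 0.358 percentage points for the share in 3T3 minus E14, 0.131 to 0.307 for 3T3 minus P19 and 0.006 to 0.097 for P19 minus E14. The lowest values of the first 2 were without 3T3 replicate 1, and that of the third without P19 replicate 1. Leave-one-out tests had 5 libraries at most and could not pass the threshold of 0.05.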
